A study of Mus musculus with 2 samples.

Results

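The testis-specific serine kinases are a small family of protein kinases made almost only in male germ cells. The 7 genes described here are 5 of these kinases (Tssk1, Tssk2, Tssk3, Tssk4 and Tssk6), their substrate Tsks and the related kinase Stk33. They were taken by symbol, 7 of the 30052 symbols listed in either library, and all 7 were present in both feature lists. Testes of adult mice were dissociated and sequenced cell by cell, and each genotype, WT and Nsun7 knockout, gave 1 library. The NSUN7 protein belongs to a family of RNA methyltransferases, and the title of the series ties it to building of the sperm flagellum. The labels give neither the deleted part of the gene nor the age, the strain or the number of animals behind each library.

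Male germ cells pass from spermatogonia through meiotic spermatocytes to round spermatids, which then elongate, replace their histones first by transition proteins (Tnp1, Tnp2) and then by protamines (Prm1, Prm2), and build a flagellum. Transcription stops as the chromatin condenses, so that elongating spermatids rely on stored mRNA. The TSSK kinases act in this period: TSSK1 and TSSK2 bind and phosphorylate TSKS, TSSK4 acts on proteins of the sperm tail, and TSSK3 and TSSK6 are needed for male fertility in mice. STK33 is a kinase of the calcium/calmodulin-dependent group, required for the shaping of the sperm head and tail.

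Tssk1 and Tssk2 lie head to tail on chromosome 16 (GRCm38, plus strand, 1 exon each). Tssk1 spans 17894223 to 17897922 and Tssk2 spans 17898637 to 17900024, with 714 bases between them. Because the 2 neighbours followed different courses through the stages, the bases just before their starts are shown, in the stretch that holds no annotated exon of the gene on the other strand. The sequences are from RefSeq (GRCm38.p6), which gave a promoter entry for 6 of the 7 genes. The Tssk1 stretch ends at the RefSeq start, which lies before the GENCODE start of 17894223 given above.
Tssk1 (chr16:17894146-17894202, plus strand): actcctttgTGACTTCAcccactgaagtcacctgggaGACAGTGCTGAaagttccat
Tssk2 (chr16:17898563-17898636, plus strand): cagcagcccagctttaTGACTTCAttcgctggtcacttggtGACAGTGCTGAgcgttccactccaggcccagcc
Capitals mark the runs of 8 or more bases that both stretches share, and these runs were picked after the sequences had been seen. On either strand, TGACTTCA occurred in 1.52% and GACAGTGCTGA in 0.0183% (6 promoters) of 32851 RefSeq promoters. Both shares include the promoters of Tssk1 and Tssk2, from which the runs were taken. All promoters were searched over their full windows, which are longer than the stretches shown, so the shares are not those for stretches of that length. The cAMP response element TGACGTCA and its shorter form TGACGT, which overlaps it, were in 1.79% and 7.51% of these promoters and in 0 of the 6 members matched. A match describes letters only, and its absence says nothing of any factor.

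The other members lie apart in the same build. Tssk3 is on chromosome 4 (129489014 to 129491022, minus strand, 2 exons), Tssk4 on chromosome 14 (55650184 to 55652539, plus strand, 4 exons) and Tssk6 on chromosome 8 (69902184 to 69903518, plus strand, 1 exon). Tsks (44943204 to 44958035, plus strand, 11 exons) and Stk33 (109279223 to 109439081, minus strand, 14 exons) are both on chromosome 7. Tssk1 lies wholly within Dgcr2 on the opposite strand, Tssk6 overlaps Yjefn3 and Ndufa13 on the opposite strand, and Stk33 overlaps a pseudogene on its own strand and an antisense gene. Whether counting used strand is not stated, so reads of these partners could be counted with Tssk1, Tssk6 or Stk33.

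The WT and knockout matrices held 16376 and 16837 barcodes with 220247156 and 210531446 counts, and 15139 and 13869 cells with median depths of 8723 and 12020 unique molecular identifiers (UMIs) were kept. There were 2168 barcode names present in both libraries. Cell classes come from marker lists, each is to be read as "like" its type, and in each of the 9 named classes 6 or more of its listed markers were highest in that class. Over kept cells, Nsun7 was at a level of 174 counts per 1000000 counts (CPM) in the WT library and 40.9 CPM in the other. A tag outside the deleted part would not test the deletion. Late spermatocytes made up 25.2% of kept WT cells and 8.56% of kept knockout cells, and elongating spermatids 33.6% and 62.8%. With 1 library per genotype no difference below was tested. Intervals are at 95% and reflect counting error alone.

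Of the 7 members, 4 had their highest level in an elongating step in both libraries when spermatids were divided into the 6 planned steps (8 of 14 gene and library pairs): Tssk2, Tssk3, Tssk6 and Tsks. That division placed the round spermatids of the libraries differently, with 717 WT and 39 knockout cells in its first step against 355 and 402 in its second. In that second step 2 of 7 members were called lower in the knockout library, Tssk3 at a ratio of 0.63 (0.60 to 0.67) and Tssk6 at 0.55 (0.52 to 0.58), where 18.2% of measured genes were higher and 14.9% lower. The order below therefore uses clusters of late spermatocytes (13, 5, 4) and of round spermatids (6, 22). Cluster 16, also of late spermatocytes (918 WT and 588 knockout cells, median of 1746 UMIs), is left out of the order and the plots. Elongating spermatids follow, ordered by protamine share, the percentage of a cell's counts from Prm1 and Prm2. Cells with Tnp1 under 1% of counts come last. These finer steps were chosen after the data had been seen, no member was used for them, and they are ranges rather than cell types.

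**Figure D1:**
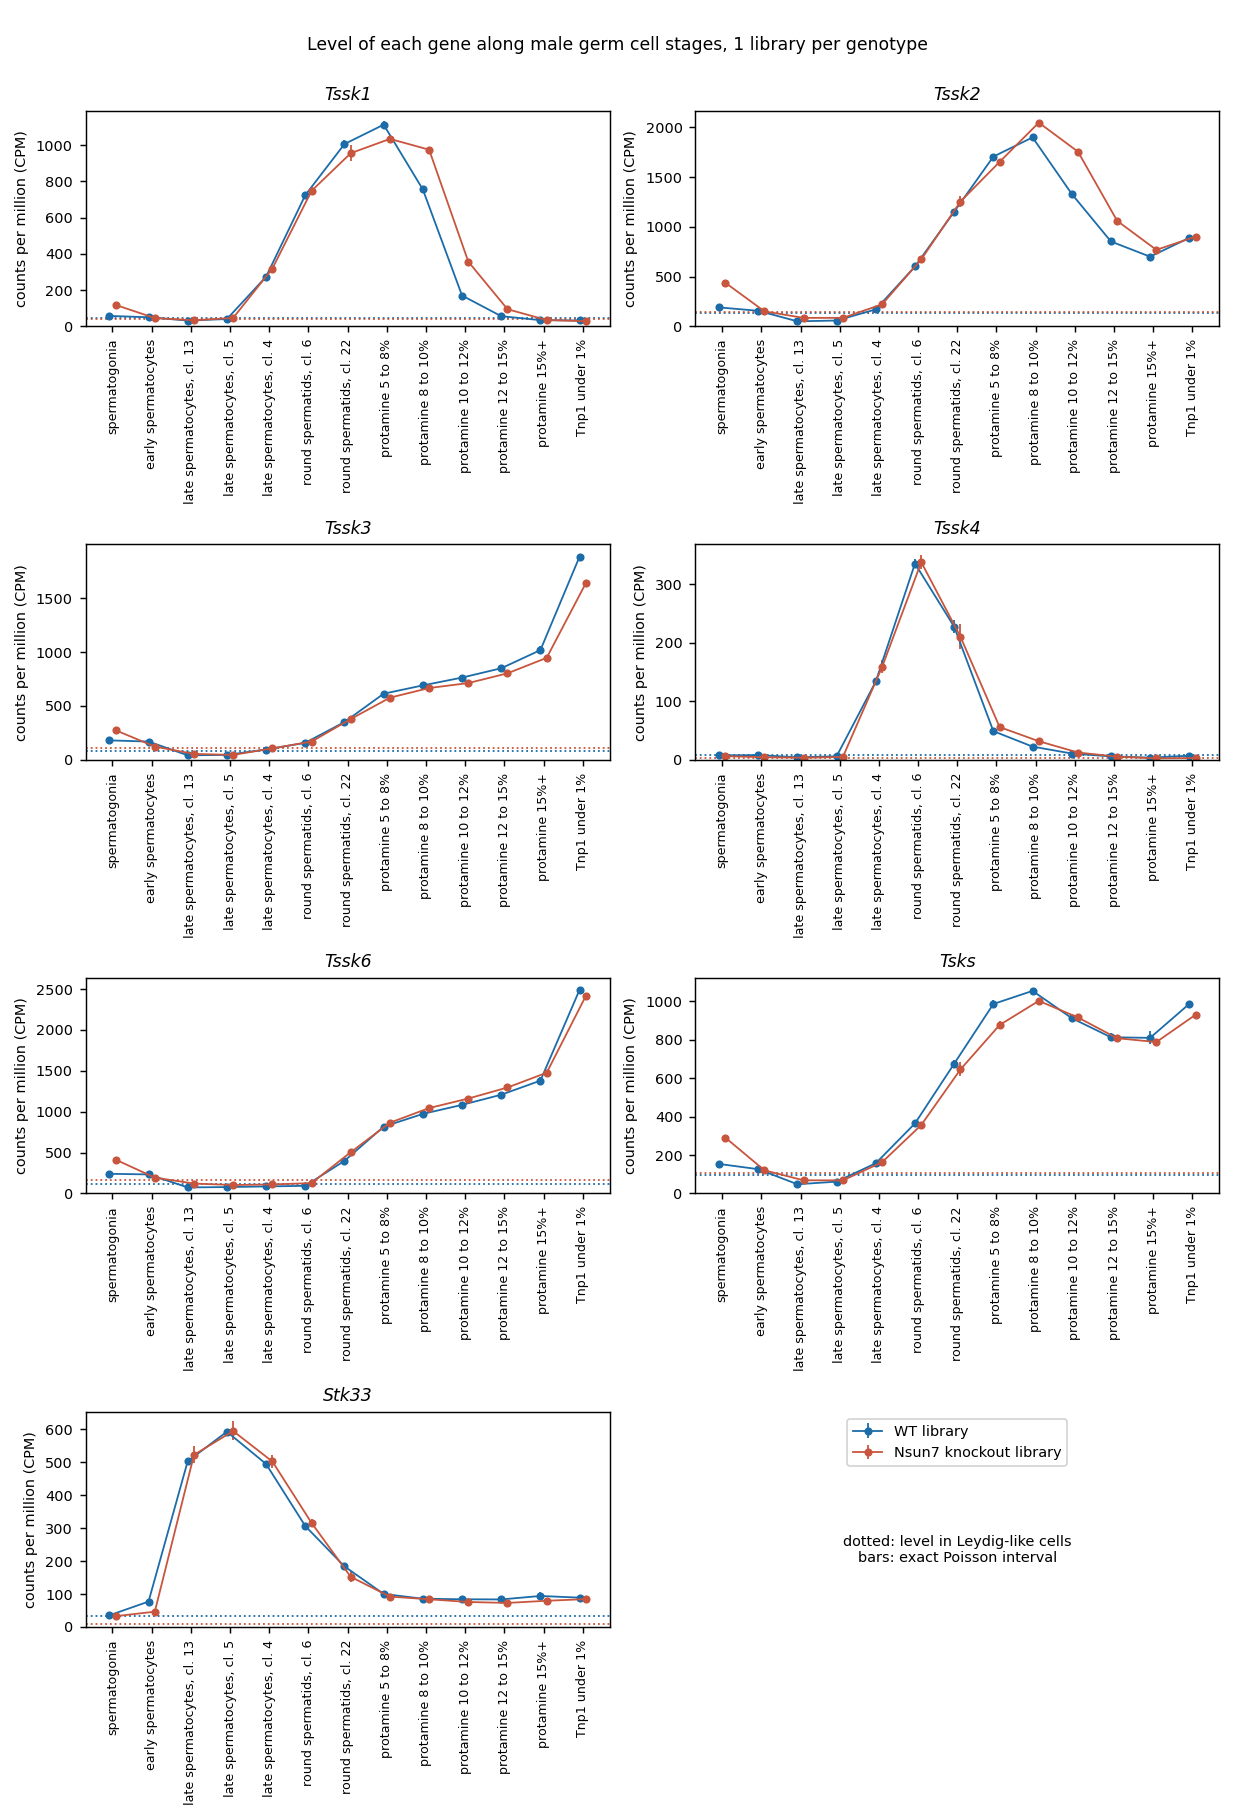
Level of each gene in CPM (linear axis) along male germ cell stages in the WT library (blue) and the Nsun7 knockout library (red). Points are sums over all cells of a stage, bars are exact Poisson intervals, and dotted lines mark the level in Leydig-like cells of the same library. Stk33 and Tssk4 peak earliest, Tssk1 at 5 to 8% protamine, Tssk2 and Tsks at 8 to 10%, and Tssk3 and Tssk6 are highest in the last of the steps plotted, in both libraries.

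Tssk1 had a level that rose from late spermatocytes and then fell steeply within elongating spermatids. In WT and knockout order, it stood at 40.3 and 46.6 CPM in cluster 5 of late spermatocytes and at 274 and 319 CPM in cluster 4. It reached 724 and 748 CPM in cluster 6 and 1006 and 955 CPM in cluster 22 of round spermatids. Its maximum was in elongating spermatids with 5 to 8% protamine, at 1113 and 1034 CPM. At the end of the series it was 34.2 and 34.9 CPM at 15% protamine or more, and 32.2 and 28.2 CPM in cells with Tnp1 under 1%. In Leydig-like cells, somatic cells that should lack the gene, Tssk1 stood at 46.6 and 39.2 CPM. From the maximum to the last step Tssk1 was 34.5-fold lower in WT and 36.7-fold lower in the knockout library, while 35.4% and 43.2% of all measured genes were 2 times or more lower over the same steps. The last level lay under that of Leydig-like cells, so these folds depend on background. In mean UMIs per cell, where no scaling is applied, Tssk1 went from 25.6 and 23.2 in cluster 22 to 0.31 in both libraries in the last step.

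The 2 libraries differed in where this fall took place. At 8 to 10% protamine Tssk1 stood at 755 and 975 CPM, a knockout to WT ratio of 1.29 (1.26 to 1.32). At 10 to 12% it stood at 170 and 357 CPM, a ratio of 2.10 (2.01 to 2.19), and at 12 to 15% at 56.0 and 94.3 CPM, a ratio of 1.69 (1.52 to 1.87). In the steps on either side of this window the libraries lay closer, with ratios of 0.93 (0.90 to 0.96) at 5 to 8% and 1.02 (0.82 to 1.28) at 15% or more. The call rule for genotype was a ratio of at least 1.5 after adding 5 CPM, among genes whose mean level was at least 10 CPM. By it Tssk1 was the only member called at 10 to 12% (1 of 7) and at 12 to 15% (1 of 6), both times higher, where 1.82% and 1.03% of all measured genes were higher and 6.82% and 8.2% lower.

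The window was filled by different clusters: at 10 to 12% protamine, 86.7% of WT cells were of cluster 0, whereas 46.6% of knockout cells were of cluster 25 and 30.9% of cluster 23, and both of these clusters came mostly from the knockout library. Within cluster 0, the one cluster with 50 or more cells of each library at 10 to 12%, Tssk1 stood at 118 and 154 CPM, a ratio of 1.31 (1.202 to 1.43), and at 12 to 15% the ratio within it was 1.18 (1.02 to 1.37), so neither call held within the shared cluster. At 8 to 10% the ratios were 1.00 (0.94 to 1.07) within cluster 7 and 1.03 (0.99 to 1.07) within cluster 15. These within-cluster values were computed after the data had been seen. The position is itself read from protamine transcripts, so a shift of Tssk1 and a shift of the protamine share cannot be told apart. When the same cells were divided into 5 ranges of equal pooled cell number by Prm1 alone, the ratio was highest in the 4th range, at 1.99 (1.82 to 2.18). By Prm2 alone it was highest in the 3rd range, at 2.61 (2.46 to 2.77), and stood at 0.69 (0.63 to 0.76) in the last.

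**Figure D2:**
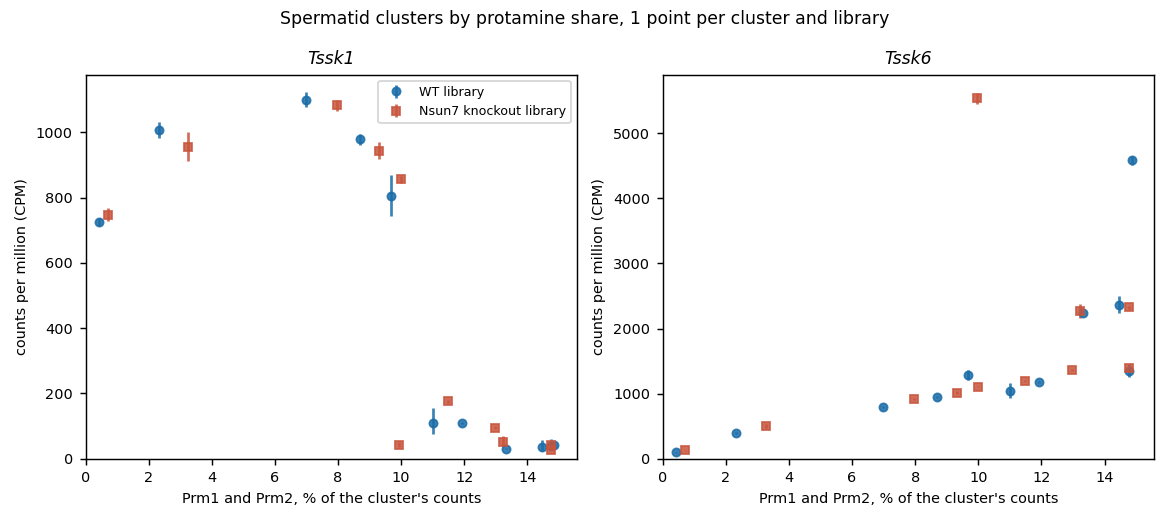
Level of Tssk1 (left) and Tssk6 (right) in CPM against the percentage of a cluster's counts from Prm1 and Prm2, with 1 point per round or elongating spermatid cluster and library (blue circles WT, red squares knockout) and exact Poisson bars. Tssk1 is at 724 CPM or more in clusters under 11% protamine, with the exception of cluster 14 of the knockout library at 42.2 CPM, and at 175 CPM or less above 11%. Cluster 14 has the highest Tssk6 level in each library, at 4587 CPM in WT with 14.9% protamine and 5538 CPM in the knockout library with 9.95%.

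Tssk2, the neighbour of Tssk1, whose protein also binds TSKS, rose over the same stages and fell far less. In WT and knockout order it stood at 602 and 673 CPM in cluster 6 and at 1151 and 1254 CPM in cluster 22. It was highest at 8 to 10% protamine, at 1899 and 2047 CPM, or 42.4 and 47.1 UMIs per cell. It then declined to 700 and 769 CPM at 15% or more and stood at 889 and 902 CPM with Tnp1 under 1%. Between 5 to 8% protamine and the last step Tssk2 was 1.92-fold lower in WT and 1.83-fold lower in the knockout library. For Tssk1 these folds were 34.5 and 36.7. They start at the maximum of Tssk1, and that of Tssk2 lay later, at 8 to 10%. They are also folds of share. In the last step 2243 WT and 2195 knockout cells held 18985 and 21943 UMIs of Tssk2, so per cell it fell by more than in CPM. The window of the Tssk1 difference showed a smaller one for Tssk2. At 10 to 12% protamine it stood at 1331 and 1755 CPM, a ratio of 1.32 (1.30 to 1.34), and at 12 to 15% at 853 and 1060 CPM, a ratio of 1.24 (1.21 to 1.28). Neither passed the 1.5 times rule, and within cluster 0 these ratios were 1.15 (1.12 to 1.19) and 1.11 (1.07 to 1.15).

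Tsks, the shared substrate of TSSK1 and TSSK2, followed Tssk2 in its rise. It stood at 365 and 357 CPM in cluster 6, 676 and 646 CPM in cluster 22 and 1055 and 1003 CPM at 8 to 10% protamine. From there it stayed within 789 to 1055 CPM in both libraries through the last step, where it was at 987 and 931 CPM. The steady level is one of share, and per cell Tsks fell. At 5 to 15% protamine 2374 WT and 5183 knockout cells held 47737 and 99646 UMIs of Tsks. In the last step 2243 and 2195 cells held 21079 and 22648. The libraries lay close for Tsks in all spermatid steps from cluster 6 on, with ratios from 0.89 (0.86 to 0.92) at 5 to 8% protamine to 1.00 (0.98 to 1.02) at 10 to 12%. At 10 to 12% protamine, where Tssk1 had a ratio of 2.10 over cells of different clusters, the ratio of its substrate was thus near 1. Within the shared cluster 0 at that range the ratios were 1.31 (1.202 to 1.43) for Tssk1 and 0.96 (0.93 to 0.99) for Tsks.

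Tssk3 and Tssk6 were the late members. TSSK6 is required for the exchange of histones for protamines, and TSSK3 acts late in sperm formation. Tssk6 stood at 92.9 and 127 CPM in cluster 6, below its level of 121 and 169 CPM in Leydig-like cells, and at 399 and 505 CPM in cluster 22. It went on to 1084 and 1161 CPM at 10 to 12% protamine and 2492 and 2417 CPM in cells with Tnp1 under 1%. From cluster 22 to the last step the rise was not only one of share. UMIs of Tssk6 per cell went from 10.1 and 12.3 to 23.7 and 26.8, although the cells of the last step held fewer UMIs. Within elongating spermatids much of the late rise was one of share. From 15% protamine or more to the last step, Tssk6 went from 1380 and 1477 CPM to 2492 and 2417 CPM. Over the same steps the median depth fell from 12525 and 15931 UMIs to 7929 and 10159 UMIs.

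Tssk3 took the same course at its own scale. It stood at 158 and 170 CPM in cluster 6, 351 and 379 CPM in cluster 22, 764 and 713 CPM at 10 to 12% protamine and 1886 and 1640 CPM in the last step. That last level was 11.9-fold that of cluster 6 in WT and 9.66-fold in the knockout library. Over these steps 11.4% and 12% of measured genes were 2 times or more higher. In Leydig-like cells Tssk3 stood at 83.4 and 106 CPM, so the folds over cluster 6 depend in part on background. They are folds of share, and the fall in depth given for Tssk6 holds for these cells too.

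From 5% protamine on, the genotypes lay near each other for both late genes. Tssk6 had ratios of 1.06 to 1.07 in the 5 protamine ranges and 0.97 (0.96 to 0.98) in the last step. Tssk3 had ratios of 0.93 to 0.96 in those ranges and 0.87 (0.86 to 0.88) in the last. In round spermatids Tssk6 was higher in the knockout library, with ratios of 1.36 (1.26 to 1.47) in cluster 6 and 1.27 (1.17 to 1.36) in cluster 22, and it stood at a similar ratio, 1.40 (1.26 to 1.55), in Leydig-like cells. The Tssk6 level of cluster 6 was under that of Leydig-like cells in both libraries and that of cluster 22 above it, and the part of free RNA in these ratios was not tested.

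A further group of cells carried the highest shares of these late genes. Elongating spermatids with under 5% protamine and Tnp1 under 1% (214 WT and 396 knockout cells, of which 208 and 383 were of cluster 14) had Tssk6 at 6247 and 6298 CPM and Tssk3 at 4062 and 4576 CPM. Tssk2 stood at 1224 and 1570 CPM there, and Tssk1 at 62.7 and 62.5 CPM. These cells were shallow, with a median of 2118 and 2072 UMIs, and per cell they held 15.4 and 15.8 UMIs of Tssk6. That is fewer than in the last step. Their place in the order was not tested.

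A smaller group with under 5% protamine but Tnp1 at 1% or more differed between the libraries, and it is left out of the plots. It held 66 WT cells, 48 of them of cluster 7, and 115 knockout cells, of which 41 were of cluster 14, with median depths of 4044.5 and 1732 UMIs. Tssk1 stood there at 940 and 507 CPM, a ratio of 0.54 (0.44 to 0.66). Tssk3 stood at 642 and 1435 CPM, a ratio of 2.24 (1.90 to 2.63), and Tssk6 at 1064 and 2383 CPM, a ratio of 2.24 (1.98 to 2.54). By the 1.5 times rule 2 of 7 members were thus higher and 1 lower, where 10.9% of measured genes were higher and 27.8% lower. The part of cluster make-up and depth in these ratios was not tested. Both groups under 5% protamine together form the first planned elongating step (280 WT and 511 knockout cells), in which 1 of 7 members was called, Tssk1, lower at a ratio of 0.38 (0.32 to 0.45), where 2.52% of measured genes were higher and 45.9% lower. Tssk3 had a ratio of 1.47 (1.40 to 1.55) and Tssk6 one of 1.33 (1.28 to 1.38) in that step.

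**Figure D3:**
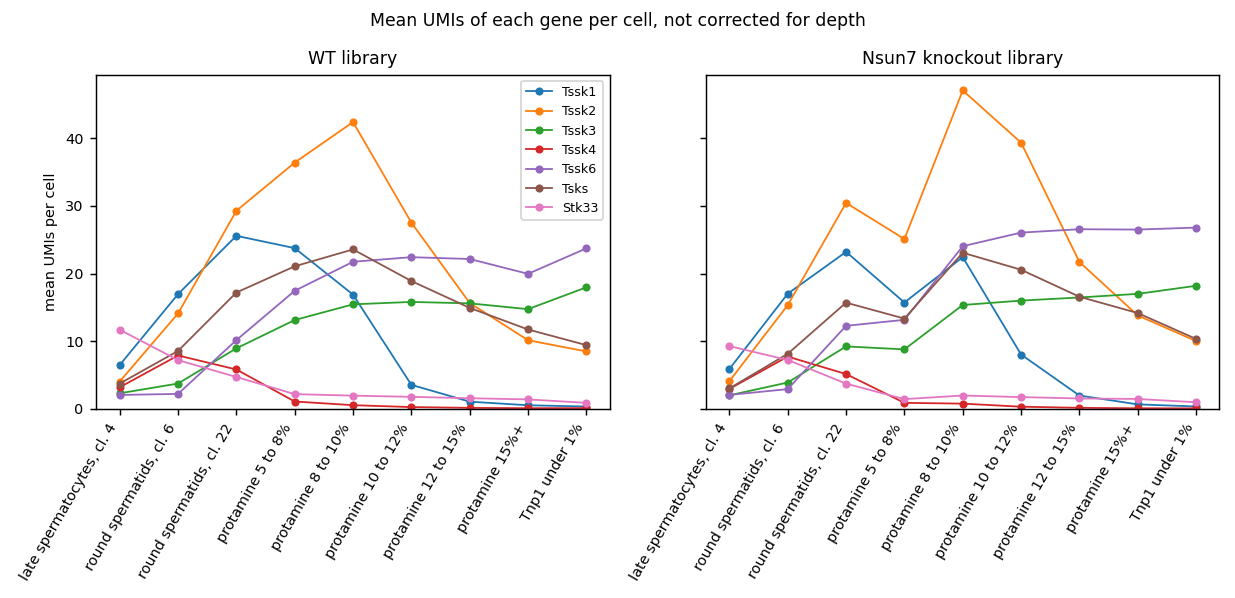
Mean UMIs of each gene per cell, with no correction for depth, from cluster 4 of late spermatocytes to the last step, in the WT library (left) and the knockout library (right). Tssk2 reaches 42.4 and 47.1 UMIs per cell at 8 to 10% protamine, Tssk1 falls to 0.31 in both libraries, and Tssk6 ends at 23.7 and 26.8. In the knockout library Tssk1, Tssk2, Tssk3 and Tsks are lower at 5 to 8% protamine than in cluster 22.

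Tssk4 and Stk33 were the early members. Tssk4, a kinase of the group whose protein is found in the sperm tail, was at 6.10 and 5.01 CPM in cluster 5 of late spermatocytes and at 134 and 159 CPM in cluster 4. No fold is given for this rise, because the level in cluster 5 was near that of 8.01 and 3.63 CPM in Leydig-like cells. It peaked in cluster 6 at 336 and 338 CPM. In cluster 22 it stood at 228 and 211 CPM and at 5 to 8% protamine at 49.2 and 56.2 CPM. By 12 to 15% protamine it was at 5.93 and 5.51 CPM, near its level in Leydig-like cells. Among the steps plotted, Tssk4 was above 100 CPM only in clusters 4, 6 and 22 in both libraries. The ratios were 1.01 (0.96 to 1.05) in cluster 6 and 0.92 (0.83 to 1.03) in cluster 22. At 8 to 10% protamine, late in its fall, Tssk4 stood at 22.7 and 31.9 CPM, a ratio of 1.41 (1.25 to 1.59), which did not pass the rule.

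Stk33 was present in late spermatocytes before any other member. It stood at 504 and 523 CPM in cluster 13, 593 and 595 CPM in cluster 5 and 495 and 503 CPM in cluster 4, against 33.3 and 10.4 CPM in Leydig-like cells. It then declined to 307 and 316 CPM in cluster 6, 184 and 152 CPM in cluster 22 and 100 and 92.3 CPM at 5 to 8% protamine. After that it held a low level of 73.1 to 94.2 CPM to the last step in both libraries. The libraries lay within 4% of each other in clusters 13, 5, 4 and 6, with ratios from 1.00 (0.95 to 1.06) to 1.04 (0.99 to 1.09), and knockout values were lower in cluster 22 at 0.83 (0.73 to 0.94).

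The start of the programme lay within the late spermatocyte class. Cluster 4 held late spermatocyte markers at 0.276% and 0.242% and round spermatid markers at 0.254% and 0.256% of counts in WT and knockout order, and so stood between the classes. Over cluster 5, Tssk1 was 6.80-fold higher in WT and 6.84-fold higher in the knockout library, Tssk2 2.92-fold and 2.59-fold, and Tsks 2.56-fold and 2.39-fold. Tssk6 was at 77.8 and 103 CPM in cluster 5 and at 85.7 and 110 CPM in cluster 4, all under its level in Leydig-like cells. The cluster 5 levels of Tssk2 and Tsks lay under, and those of Tssk1 near, the levels in Leydig-like cells, so these folds depend on background. Between clusters 4 and 5, 13.2% of measured genes in WT and 14.6% in the knockout library were 2 times or more higher.

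Between whole classes, 3 of 7 members were 2 times or more higher in elongating than in round spermatids in both libraries (Tssk3, Tssk6 and Tsks), and 3 of 7 were 2 times or more lower (Tssk1, Tssk4 and Stk33). Of all measured genes, 9.72% and 10.2% were higher and 56.1% and 57.8% lower, in WT and knockout order. Tssk6 was 8.64-fold higher in WT (8.38 to 8.90) and 7.25-fold higher in the knockout library (6.94 to 7.58), over round spermatid levels of 172 and 196 CPM that were not far above those of Leydig-like cells. Tssk4 was 18.0-fold lower (16.98 to 19.1) and 21.9-fold lower (20.8 to 23.2). Tssk2, at 1.76-fold and 1.82-fold higher, was the 7th member and stayed under the rule. The trimmed mean factor between these classes was -1.16 in WT and -1.63 in the knockout library (log2), and relative to it Tssk1, with log2 ratios of -1.07 and -1.11, was higher in elongating spermatids. The median log2 ratio of the members was 0.81 in WT and 0.86 in the knockout library, against -1.23 and -1.39 over all genes. Between round spermatids and late spermatocytes, 6 of 7 members (WT) and 5 of 7 (knockout) were 2 times or more higher, where 25.5% and 24% of measured genes were higher and 22.2% and 20.5% lower. Stk33 was 1.94-fold and 1.89-fold lower, and Tssk6 was at 1.68-fold in the knockout library.

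Between genotypes, 0 of 7 members passed the 1.5 times rule in round spermatids in either direction, where 0.0488% of measured genes were higher and 0.134% lower. The ratios ran from 0.92 for Tsks (0.89 to 0.95) to 1.14 for Tssk6 (1.08 to 1.205), with Tssk1 at 797 and 786 CPM, Tssk2 at 744 and 780 CPM and Tssk4 at 308 and 315 CPM. In elongating spermatids 0 of 7 passed, where 0.0209% of measured genes were higher and 7.38% lower. There the ratios ran from 0.84 for Tssk3 and Tssk4 (0.83 to 0.85 and 0.78 to 0.90) to 1.08 for Tssk2 (1.07 to 1.09). The elongating class was made of other clusters in each library, with most WT cells in clusters 0 and 2 and most knockout cells in clusters 26, 3, 23 and 25. The Tssk1 ratio over the class was 0.96 (0.94 to 0.97), against 0.93 to 2.10 in its 5 protamine ranges. Under trimmed mean scaling, whose factor was -0.33 on the log2 scale, all 7 ratios lay above 1. The median log2 ratio of the members was 0.03 in round and -0.10 in elongating spermatids, against -0.02 and -0.07 over all genes.

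In late spermatocytes 1 of 7 members, Tssk2, passed the rule, higher in the knockout library at 94.4 and 153 CPM, a ratio of 1.62 (1.54 to 1.70). Of measured genes 2.25% were higher and 0.322% lower. Tssk2 lay at 136 and 142 CPM in Leydig-like cells, above or near these levels, with a ratio of 1.05 (0.94 to 1.16). Free RNA was predicted from the share of 4 Leydig cell genes in the class relative to all barcodes, at 42.0 and 67.5 CPM of the class levels. Tssk2 was still called with this amount subtracted. In macrophages the same prediction gave 202 and 210 CPM of Tssk2, where 359 and 678 CPM were measured. The subtraction may thus be too small to decide the call, and the part of free RNA in it was not tested. Tssk4, at 47.7 and 69.9 CPM with a ratio of 1.47 (1.36 to 1.58), and Tssk1, at 115 and 158 CPM with a ratio of 1.38 (1.31 to 1.45), were well above their Leydig-like level, but within cluster 4, which carries most of both, their ratios were 1.18 (1.10 to 1.28) and 1.16 (1.10 to 1.23). The make-up of the class differed, with a median depth of 12274.5 UMIs in WT and 4037 in the knockout library. The shallow cluster 16 gave 918 of its 3812 WT cells and 588 of its 1187 knockout cells. Within cluster 16, 0 of 7 members passed, where 2.81% of measured genes were higher and 7.67% lower. Tssk2 stood there at 135 and 198 CPM, a ratio of 1.47 (1.23 to 1.76). With the 2 libraries weighted to an equal mix of clusters, 0 of 7 members passed. Within cluster 13, however, 2 of 6 measured members passed, both higher, where 3.42% of measured genes were higher and 1.36% lower. These were Tssk2, at 50.3 and 84.9 CPM with a ratio of 1.69 (1.47 to 1.93), and Tssk6, at 73.8 and 121 CPM with a ratio of 1.64 (1.46 to 1.83), all under the levels in Leydig-like cells.

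**Figure D4:**
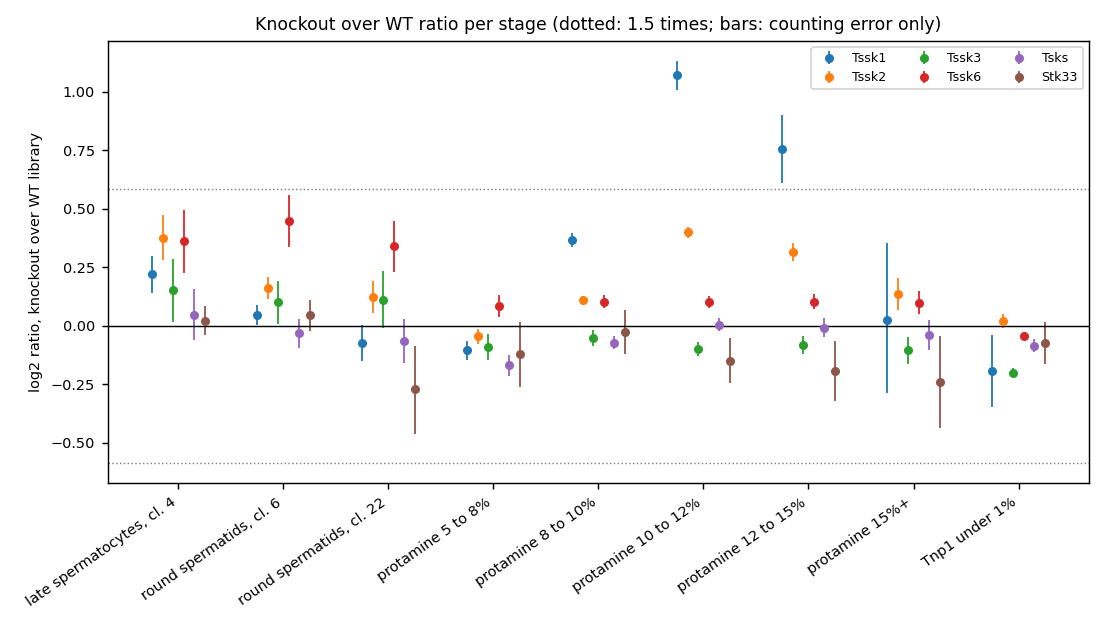
Knockout over WT ratio (log2 axis) for 6 genes from cluster 4 of late spermatocytes to the last spermatid step, with exact conditional intervals for counting error only and dotted lines at 1.5 times. Tssk1 lies above the line at 10 to 12% and 12 to 15% protamine, and the other points lie between the lines. The group under 5% protamine is not plotted. Tssk4 is left out because its late levels are at those of Leydig-like cells.

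Cells that should lack these genes also held counts of them. After every cell was thinned to 1000 UMIs, 77.3% of WT and 75.5% of knockout elongating spermatids held a Tssk6 UMI, against 6.89% and 12.2% of Leydig-like cells. Before thinning these shares were 99.8% and 99.4% against 49.4% and 65%, at median depths of 11704 and 14870 UMIs against 10541 and 14100. For Tssk1 in round spermatids the thinned shares were 54.3% and 57.8%, against 5.69% and 2.5% in Leydig-like cells (98.6% and 97.96% against 27.2% and 25% before thinning, at median depths of 17926 and 16497 UMIs in round spermatids). Shallow somatic cells held more: macrophages had Tssk6 at 516 and 749 CPM and Tssk2 at 359 and 678 CPM. The levels of all 7 members in spermatogonia and early spermatocytes lay below those of macrophages in both libraries, and how much of them was free RNA was not tested. In early spermatocytes 1 of 6 measured members was called between genotypes, Stk33, lower in the knockout library at 77.2 and 46.5 CPM, where 0.887% of measured genes were higher and 5.23% lower.

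In spermatogonia 5 of 6 measured members were 1.5 times or more higher in the knockout library (Tssk1, Tssk2, Tssk3, Tssk6 and Tsks), where 7.73% of measured genes were higher and 3.23% lower. The elongating spermatid marker list took a median of 0.926% of counts in WT spermatogonia and 1.55% in knockout ones. Over all barcodes Tssk2 stood at 627 and 1144 CPM and Tssk6 at 613 and 1114 CPM. The part of free RNA in the spermatogonial ratios was not tested. Stk33 moved the other way, at 273 CPM over all WT barcodes and 119 CPM over all knockout barcodes, and stood at 33.3 and 10.4 CPM in Leydig-like cells, a ratio of 0.31 (0.23 to 0.42).

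Other genes of the pathway were read from a list of 13 relatives, cofactors, partners and substrates. Of 11 measured in round spermatids 0 passed the 1.5 times rule between genotypes. Tsacc, a co-chaperone that activates TSSK6, stood at 439 and 456 CPM there and at 1092 and 1224 CPM in elongating spermatids, and Pdpk1, a kinase that activates others of this superfamily, at 163 and 150 CPM and at 284 and 324 CPM. Odf2, an outer dense fibre protein and substrate of TSSK4, stood at 2453 and 2556 CPM in round and 7677 and 7336 CPM in elongating spermatids. Of 10 measured in elongating spermatids, 0 were higher and 3 were lower in the knockout library, where 7.38% of measured genes were lower. These were the chaperone genes Hsp90aa1 (131 and 51.5 CPM) and Hsp90ab1 (43.1 and 23.0 CPM) and the axonemal gene Spag16 (19.1 and 10.5 CPM). All 3 were also present in Leydig-like cells, where Hsp90aa1 stood at 388 and 272 CPM, Hsp90ab1 at 1044 and 977 CPM and Spag16 at 19.2 and 4.32 CPM.

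The relative Tssk5 was a gene of round spermatids, at 27.5 and 29.7 CPM there, 1.17 and 1.78 CPM in late spermatocytes and 0.41 and 0.22 CPM in elongating spermatids. The transcription factor gene Crem stood at 605 and 597 CPM in round spermatids and 90.2 and 74.1 CPM in elongating ones. In a second list, of 11 other kinases of male germ cells, 0 of 10 measured members in late spermatocytes and in round spermatids and 0 of 7 in elongating spermatids passed the rule. Haspin, a histone H3 kinase, stood at 773 and 735 CPM in round and 657 and 709 CPM in elongating spermatids, and Camk4 at 118 and 117 CPM and at 121 and 137 CPM.

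Profiles over the spermatogonia, both spermatocyte classes and the 6 planned spermatid steps of both libraries (18 profiles, log2 of CPM plus 5) described which genes ran together. Tssk3 and Tssk6 had a Pearson correlation of 0.98, Tssk2 and Tsks 0.96, Tssk1 and Tssk4 0.83, and the neighbours Tssk1 and Tssk2 0.38. The first 3 of these pairs, each on different chromosomes, were named for their high correlation, so setting the neighbours against them tests nothing. The remaining pairs lay on both sides of the neighbours, from Tssk3 and Tsks at 0.89 to Tssk4 and Tssk6 at -0.59. The closest of 2343 other genes were Tppp2 (0.999) and Cabs1 (0.997) for Tssk6, Clpb (0.997) and Oaz3 (0.995) for Tssk3, and Knop1 (0.976) and Erich3 (0.972) for Tssk1. For Tssk4 they were Spaca3 and Fam24a (both 0.990), for Tssk2 Tbc1d21 (0.963), for Tsks Zcchc13 (0.991) and for Stk33 Cetn4 (0.979). Spaca3 is one of the round spermatid markers and Oaz3 one of the elongating spermatid markers that named the clusters. The profiles share cells, depth and the 2 libraries, and carry no test. They also include the planned steps that placed the round spermatids of the libraries differently. In spermatogonia and early spermatocytes the members lay below their levels in macrophages, so shared background can enter these correlations.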

How the data were processed

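Cells of mouse testis in 2 libraries (polyadenylated RNA, DNBelab C droplet kit, per the labels' protocols) were deposited as matrices of whole-number counts. PISA 0.12 made them per the file headers. The build is GRCm38 per the submitters' processing notes. For the aligner, annotation, use of strand and barcode filter: not given in the sources used here. No barcode had under 1001 counts. Nothing states separate animals.

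Cells needed 200 genes and a mitochondrial share up to 20%, and counts were taken as UMIs. Doublets (Scrublet in scanpy 1.11.5) were called and kept. Counts were scaled to 10000 per cell and logged; 3000 variable genes per library, without Nsun7 and the 7 members, gave 40 principal components, a graph of 20 neighbours and 27 Leiden clusters (igraph 0.11.9, resolution 1), uncorrected for library. Clusters were named from the marker lists and left unnamed where over 50% of cells were called doublets, another class led, or the median count was less than the library's divided by 3 and no own marker led. The limits on doublets and counts were taken from an earlier treatment of these data.

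Counts were summed per library and stage and divided by the stage total (CPM), with exact Poisson intervals, exact conditional binomial intervals for ratios and Clopper-Pearson intervals for shares. PCR and droplet error are not covered. Named genes were all members, all measured genes of 2 lists, and per member the most alike genes at 200 CPM or more. Members and lists were chosen with earlier results of these data known. Counting steps were tested on simulated data. Python 3.11.15, numpy 2.4.6, scipy 1.17.1 and pandas 2.3.3 were used. Gene positions are from GENCODE M21.

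Alternatives were a stricter filter, doublet removal, resolution 2, free RNA subtraction, an equal cluster mix, means of per-cell CPM, totals without protamine and transition protein genes, trimmed mean scaling, a 50 CPM minimum and other step cuts. Added after seeing the data were the finer steps, their values within single clusters, single-protamine axes and 3 choices of clusters.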

Additional observations from a re-analysis of the deposited data

How the results depend on the processing

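The count of members higher in the knockout library was 1 in late spermatocytes. It became 2 with called doublets removed (Tssk2 and Tssk6) and 2 with free RNA subtracted (Tssk2 and Tssk4), and 0 at resolution 2 and 0 with an equal mix of clusters. The cause was not tested beyond what these settings change by construction. The counts of 0 between genotypes in round and elongating spermatids stayed at 0 under every alternative run, and 3 to 4 members were 2 times or more higher in elongating than in round spermatids in each library. The 8 of 14 gene and library pairs highest in an elongating step became 9 or 10 under other cuts, clusters or the finer steps. Of the single-gene values between genotypes under alternatives, 137 moved by less than the counting interval and 73 by more. In elongating spermatids Tssk1, Tssk3, Tssk4, Tssk6, Tsks and Stk33 had log2 ratios on both sides of 0 across the alternatives, for example -0.27 to 0.09 for Tssk3, and Tssk2 stayed above 0 (0.05 to 0.45). The trimmed mean factor (log2) was -0.33 between genotypes in elongating spermatids, and -1.16 in WT and -1.63 in the knockout library between elongating and round spermatids. Depth limits Tssk4 in late elongating spermatids, where it lay near its level in Leydig-like cells. No paired analysis was possible because each genotype has 1 library.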

Other observations

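A pair of clusters with round spermatid genes and low counts were left unnamed and enter no comparison above. Cluster 1 (694 WT and 593 knockout cells, median of 2231 UMIs) had Tssk1 at 538 and 499 CPM, Tssk2 at 444 and 430 CPM, Tssk4 at 207 and 222 CPM and Stk33 at 394 and 421 CPM in WT and knockout order. These values lay between those of clusters 4 and 6. Cluster 21 (303 WT and 343 knockout cells, median of 3874.5 UMIs) had Tssk1 at 964 and 1002 CPM, Tssk2 at 1210 and 1280 CPM, Tssk4 at 206 and 212 CPM, Tssk6 at 496 and 587 CPM and Stk33 at 183 and 168 CPM. In cluster 22 Tssk1 stood at 1006 and 955 CPM, Tssk2 at 1151 and 1254 CPM, Tssk4 at 228 and 211 CPM and Stk33 at 184 and 152 CPM.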
